A study of Homo sapiens with 4 samples.

Results

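The genes described here are the enzymes that write and erase histone methylation and remove histone acetylation, together with the subunits of the SWI/SNF remodelling complex and related ATPases. They were taken by symbol from the deposited table: most of the KDM1 to KDM8 demethylases, and the KMT2 and SETD methyltransferases, numbered HDAC deacetylases, SMARC genes, and ARID1 and ARID2 subunits. Of 19897 rows, 62 matched, namely 59 enzymes or subunits (17 KDM, 5 KMT2, 10 SETD, 11 HDAC, 13 SMARC and 3 ARID) and 3 antisense RNAs that carry a member's name. The RNA came from DU145, an established human prostate cancer cell line grown with 10% serum. Of 4 poly-A selected RNA-seq libraries, 2 came from cells in which TAZ (the gene WWTR1) was knocked down with short hairpin RNAs, and 2 from control cells with pLKO, the hairpin vector. The series reports 2 independent TAZ hairpins without tying either to a library. No label states whether paired libraries are separate cultures, so the p-values cover the spread between these libraries, possibly a technical one.

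TAZ is a coactivator held back by the Hippo kinases, and it acts beside its relative YAP on DNA bound by TEAD factors. Chromatin regulators of the kind described here set how accessible such sites are: KMT2 and SETD1 enzymes methylate H3K4 at promoters and enhancers, KDM enzymes remove methyl groups, HDACs remove acetyl groups, and SWI/SNF slides or ejects nucleosomes with energy from ATP. Several SWI/SNF subunits and KMT2 enzymes are mutated often in cancers, and ARID1A-containing SWI/SNF has been reported to bind YAP and TAZ.

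Recovered totals ran from 12078623 to 14814918 reads in the knockdown libraries and from 11687727 to 13681392 reads in the controls. The targeted gene, WWTR1, had normalized counts of 839 and 719 in the knockdown libraries, against 2508 and 3626 in the controls, a log2 fold change of -1.96 ± 0.20 (SE) with an adjusted p of 0.0086 by limma. The adjusted p of WWTR1 was 0.0022 by edgeR, 1.8e-14 by DESeq2 and 1.9e-14 in the authors' deposited table. The limma call was lost with any one library left out, a setting that leaves a lone library in a group. The epithelial markers KRT8, KRT18, EPCAM and CDH1 were all present, with summed normalized counts of 25992 and 16218 in the knockdown libraries, against 29246 and 40419 in the controls. KRT8 and KRT18 carried that sum and were lower in both knockdown libraries than in both controls, whereas EPCAM and CDH1 were higher in both. EPCAM had 709 and 1061 in the knockdown libraries, against 520.4 and 661 in the controls, and CDH1 had 2296 and 1355 in the knockdown libraries, against 820.02 and 1329 in the controls. The leukocyte markers with a row, mostly CD14, summed to at most 29.7 in every library, with PTPRC at 0.886 or at 0. CD14 had 13.3 and 6.25 in the knockdown libraries, against 28.8 and 15.0 in the controls. The endothelial markers summed to at most 20.7. The fibroblast markers, mostly COL1A1, summed to 171 and 157 in the knockdown libraries, against 105 and 54.1 in the controls. In bulk RNA, fewer cells with a transcript and less of it per cell cannot be told apart, and the part of cell make-up in the values below was not tested.

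None of the 59 enzymes and subunits passed the test. With limma on log2(normalized count + 1) and Benjamini-Hochberg adjustment over 17737 genes, 0 of 59 members were called, where the background was 0.0113% of all genes tested, and the smallest adjusted p of a member was 0.595. The count models on the recovered reads called none of them either. The smallest adjusted p-values were 0.506 by edgeR (background 0.0564%) and 0.402 by DESeq2 (background 0.542% of the 12551 genes with an adjusted p). In the authors' deposited table, the smallest adjusted p of a member was 0.411, where 0.45% of genes were called higher and 0.0868% lower. At an unadjusted limma p under 0.05 stood 4 of 59 members, or 6.78%, all higher in the knockdown: KMT2A, KMT2C, KMT2D and SETD7. The background at that limit was 7.05% of all genes in either direction, and 8.23% of genes with a mean normalized count of at least 100. In either direction, the members' share was thus close to that of genes in general. Counting only higher genes, it was 6.78% against 4.33% of all genes. edgeR and DESeq2 each put 3 members (5.08%) under that limit, namely KMT2A, KMT2C and SETD7. The backgrounds were 7.14% of 17737 genes by edgeR and 4.16% of 19871 genes by DESeq2. The DESeq2 set also holds genes with too few reads for the other fits, so these backgrounds are over unlike sets.

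The spread of the members was narrow, with 29 higher and 30 lower in mean after TAZ knockdown and a median of -0.01 on the log2 scale, the same as over all genes tested. Of all genes tested, 49.0% were higher in mean, which is the background of the class counts below. The median absolute log2 fold change was 0.12 over the members, 0.16 over the 10236 genes with a mean normalized count of at least 100 and 0.22 over all genes tested. The members also had higher counts, with a median of 941, against 570 and 178 in those sets. Their median SE was 0.18, against 0.20 and 0.26. The part of expression level in the narrow spread was not tested. The members ran from -0.50 for HDAC10 to 0.52 for SETD7. Both knockdown libraries lay above both controls for 10 members, or 16.9% (background 18.4%), and below both for 12, or 20.3% (background 19.0%). For 55 of 59 members the 95% interval of the fold change lay within a 2-fold change either way, and for 33 within a 1.5-fold change. In 37 of 59 members the difference between the group means was smaller than the difference between the controls. The same count over all genes was not made. Over all genes tested, the median absolute log2 difference between the controls was 0.30, above their median absolute log2 fold change of 0.22. For the members these were 0.20 and 0.12. A difference between 2 single libraries varies more than one between means of 2 libraries. The control difference would thus tend to be the larger even in genes without a change.

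**Figure D1:**
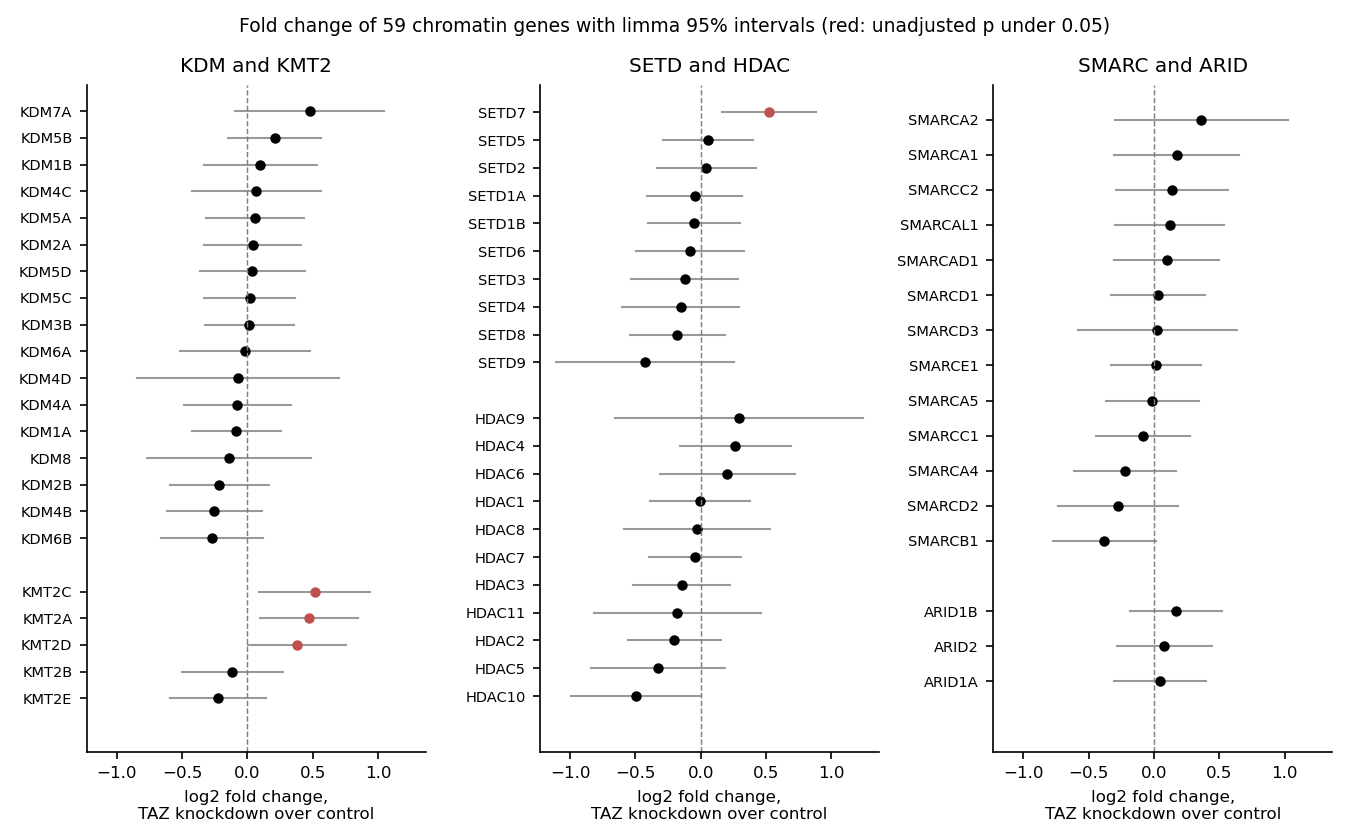
Log2 fold change (TAZ knockdown minus pLKO control, log2(normalized count + 1) scale) of the 59 members, with bars for the 95% interval of the limma fit (n = 2 libraries a group). KMT2A, KMT2C, KMT2D and SETD7, in red, are the members with an unadjusted p under 0.05, and the members run from -0.50 to 0.52.

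Promoter sequences were compared for 53 of the 59 members that RefSeq (GRCh38.p14) lists by symbol, each as 300 bases from 250 before to 50 after the start. Those of the 4 members with the lowest p-values, and of SMARCB1, the lowest SWI/SNF subunit, are shown because the values below turn on these genes. Capitals mark the 6-letter GC box GGGCGG, the TEAD motif GGAATG and the AP-1 motif TGANTCA on either strand.
KMT2A (chr11:118436242-118436541, plus strand): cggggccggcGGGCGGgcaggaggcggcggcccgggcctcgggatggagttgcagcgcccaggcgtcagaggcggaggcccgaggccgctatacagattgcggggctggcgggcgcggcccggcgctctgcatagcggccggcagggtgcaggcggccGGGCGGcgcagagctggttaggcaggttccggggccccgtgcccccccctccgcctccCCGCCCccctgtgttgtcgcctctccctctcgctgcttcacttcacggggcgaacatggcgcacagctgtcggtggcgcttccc
KMT2C (chr7:152435954-152436253, minus strand): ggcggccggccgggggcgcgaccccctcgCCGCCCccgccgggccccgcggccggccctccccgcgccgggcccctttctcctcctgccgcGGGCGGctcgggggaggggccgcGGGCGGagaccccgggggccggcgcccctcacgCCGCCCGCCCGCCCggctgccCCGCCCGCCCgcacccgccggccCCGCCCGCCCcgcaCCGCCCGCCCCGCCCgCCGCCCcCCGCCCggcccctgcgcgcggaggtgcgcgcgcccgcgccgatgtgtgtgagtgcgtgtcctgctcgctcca
KMT2D (chr12:49060745-49061044, minus strand): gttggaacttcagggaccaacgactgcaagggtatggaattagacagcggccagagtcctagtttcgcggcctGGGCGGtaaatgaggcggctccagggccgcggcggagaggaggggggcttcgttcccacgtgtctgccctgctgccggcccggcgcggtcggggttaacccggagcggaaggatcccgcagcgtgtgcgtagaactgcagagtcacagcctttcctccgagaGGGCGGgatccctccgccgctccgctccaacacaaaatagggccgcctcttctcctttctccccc
SETD7 (chr4:139556170-139556469, minus strand): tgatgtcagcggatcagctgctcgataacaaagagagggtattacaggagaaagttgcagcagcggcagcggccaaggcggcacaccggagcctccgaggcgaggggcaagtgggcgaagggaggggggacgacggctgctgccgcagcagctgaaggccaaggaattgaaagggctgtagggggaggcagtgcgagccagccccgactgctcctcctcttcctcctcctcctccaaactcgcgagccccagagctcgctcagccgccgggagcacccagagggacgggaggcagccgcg
SMARCB1 (chr22:23786716-23787015, plus strand): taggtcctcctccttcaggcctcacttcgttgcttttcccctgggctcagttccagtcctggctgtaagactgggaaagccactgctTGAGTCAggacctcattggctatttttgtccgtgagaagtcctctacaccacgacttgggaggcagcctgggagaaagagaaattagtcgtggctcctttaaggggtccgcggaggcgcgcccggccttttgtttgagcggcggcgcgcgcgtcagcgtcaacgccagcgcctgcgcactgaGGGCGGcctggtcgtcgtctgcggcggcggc
The KMT2C window held 15 GC boxes, many of them overlapping, the KMT2A window 3 and the KMT2D window 2. The SETD7 window held none of the 3 motifs. In SMARCB1 the capitals mark 1 AP-1 match and 1 GC box. A match is a run of letters and does not show that a factor binds there.

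Over the 53 windows, a GC box stood in 38, or 71.7%, against 45.0% of 35116 RefSeq promoters of the same length, and in all 5 KMT2 genes. The TEAD motif stood in 1 of 53, or 1.89%, against 14.0% of all promoters, and that 1 was HDAC8, a class I deacetylase. The AP-1 motif stood in 5, or 9.43%, against 7.71%; these were KDM4C, KDM6A, HDAC9, SMARCA2 and SMARCB1. The E-box CACGTG stood in 5 (9.43%, against 7.26%), CCAAT or its reverse in 16 (30.2%, against 34.6%), and the cyclic AMP element TGACGTCA in 0 (against 1.85%). The members' windows were richer in CpG, with a median of 29 CpG against 14 over all promoters, and had a median GC content of 66.3% against 58.7%. The 35116 promoters were not limited to genes tested here, nor to 1 promoter per gene, whereas each member entered with 1 window. The motif, CpG and GC values therefore compare unlike sets.

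The KMT2 enzymes stood highest of the 6 classes, at a median of 0.38 on the log2 scale. KMT2A, the MLL1 H3K4 methyltransferase found in leukaemia fusions, had normalized counts of 2193 and 2633 in the knockdown libraries, against 1847 and 1621 in the controls, a log2 fold change of 0.47 ± 0.17 (SE) with an adjusted limma p of 0.650. KMT2C, an H3K4 monomethyltransferase of enhancers, had 1428 and 1768 in the knockdown libraries, against 959 and 1289 in the controls (0.51 ± 0.19, adjusted p 0.664). For both genes the lower knockdown library lay above the higher control. KMT2D, the close relative of KMT2C with the same enhancer role, had 4782 and 4546 in the knockdown libraries, against 3227 and 3982 in the controls (0.38 ± 0.17, adjusted p 0.707), again without overlap. Leaving out the first control, the lowest library for KMT2C and KMT2D, brought their log2 fold changes to 0.30 and 0.23, and the KMT2 median to 0.23.

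The other 2 KMT2 genes lay on the other side of 0. KMT2B, the MLL2 enzyme of bivalent promoters, had 1537 and 1296 in the knockdown libraries, against 1397 and 1672 in the controls, and the groups overlapped (-0.12 ± 0.17). KMT2E, an MLL-family protein whose SET domain lacks known methyltransferase activity, had 1172 and 1148 in the knockdown libraries, against 1484 and 1238 in the controls (-0.22 ± 0.17, adjusted p 0.805). Both KMT2E knockdown values were below both controls, but without the first control the log2 fold change was -0.094. Within each library, the log2 ratio of the normalized counts of KMT2A to KMT2E was 0.90 and 1.20 in the knockdown libraries, against 0.32 and 0.39 in the controls. Since KMT2A lay above both controls and KMT2E below both, this ratio had to separate the groups and adds nothing to their values. The log2 ratio of KMT2C to KMT2D overlapped, at -1.74 and -1.36 in the knockdown libraries, against -1.75 and -1.63 in the controls.

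**Figure D2:**
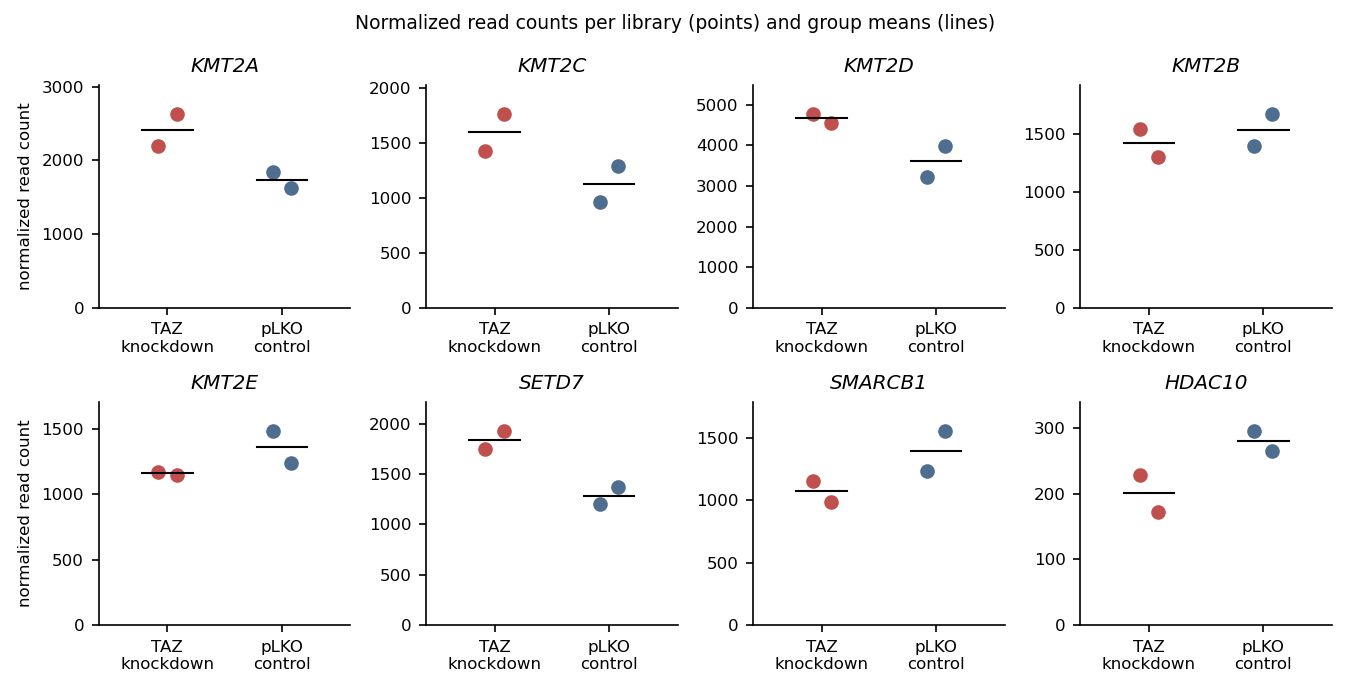
Normalized counts per library of the 5 KMT2 genes, SETD7, SMARCB1 and HDAC10, with the 2 TAZ knockdown libraries left of the 2 pLKO controls in each panel, lines at the group means, and y axes that start at 0. The knockdown values of KMT2A, KMT2C, KMT2D and SETD7 lie above both controls, those of KMT2E, SMARCB1 and HDAC10 below both, and those of KMT2B overlap.

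The 3 higher KMT2 genes have some of the longest transcripts in the table, at 16628 bases for KMT2A, 16862 for KMT2C and 19419 for KMT2D (longest protein-coding transcript, GENCODE 29). Long transcripts in general had higher values in the knockdown libraries. Their log2 fold changes had a median of 0.25 over 588 genes with transcripts of 10000 bases or more (quartiles 0.08 and 0.50), against -0.12 over 3211 genes under 2000 bases. Among the 66 genes with transcripts of 15000 to 20000 bases and a mean of at least 100, which include these 3, the median was 0.29 (quartiles 0.09 and 0.47). KMT2D lay within those quartiles, KMT2C above them and KMT2A at the upper one.

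With each library's trend over transcript length and GC content removed before the fit, KMT2A stood at 0.11 ± 0.17, KMT2C at 0.12 ± 0.17 and KMT2D at 0.14 ± 0.16, with adjusted limma p-values of 0.954, 0.948 and 0.937. These values are 22.4%, 23.9% and 36.2% of their log2 fold changes before removal, and the groups then overlapped for all 3. The KMT2 median came to 0.11. Over the 58 members with a known length, Spearman's rho between length and log2 fold change was 0.49, against 0.30 over all 14580 genes with a length and 0.40 over the 9642 of these with a mean of at least 100. It was 0.45 over the 53 members without KMT2 and 0.03 over all 58 once the trend was removed. These correlations are across genes of the same 4 libraries, which are not independent replicates, and what made values follow length in these libraries was not tested.

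Once the trend was removed, 1 of 58 members lay above both controls in both knockdown libraries, or 1.72% (background 16.3%), and 20 lay below both, or 34.5% (background 18.7%). Over genes with a length and a mean of at least 100, these backgrounds were 15.4% and 20.1%. The median of the members was then -0.07, against -0.02 over all genes with a length and -0.03 over those with a mean of at least 100. Between pairs of libraries that median was -0.07 and -0.06 for the first knockdown library set against each control, and -0.085 and -0.081 for the second. Between both controls it was -0.02, and between both knockdown libraries -0.03. By class, the control difference ran from -0.22 for SMARC to 0.24 for KMT2, so opposite signs cancel in the -0.02. None of the 58 was called (background 0.0137%). At an unadjusted p under 0.05 stood 2 of the 58 (3.45%, background 5.88%), both lower, namely KMT2E at -0.43 ± 0.17 and the class I deacetylase HDAC2 at -0.50 ± 0.15, and neither passed the adjusted test (adjusted p 0.840 and 0.832). HDAC2 enters that fit with a transcript of 9874 bases.

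**Figure D3:**
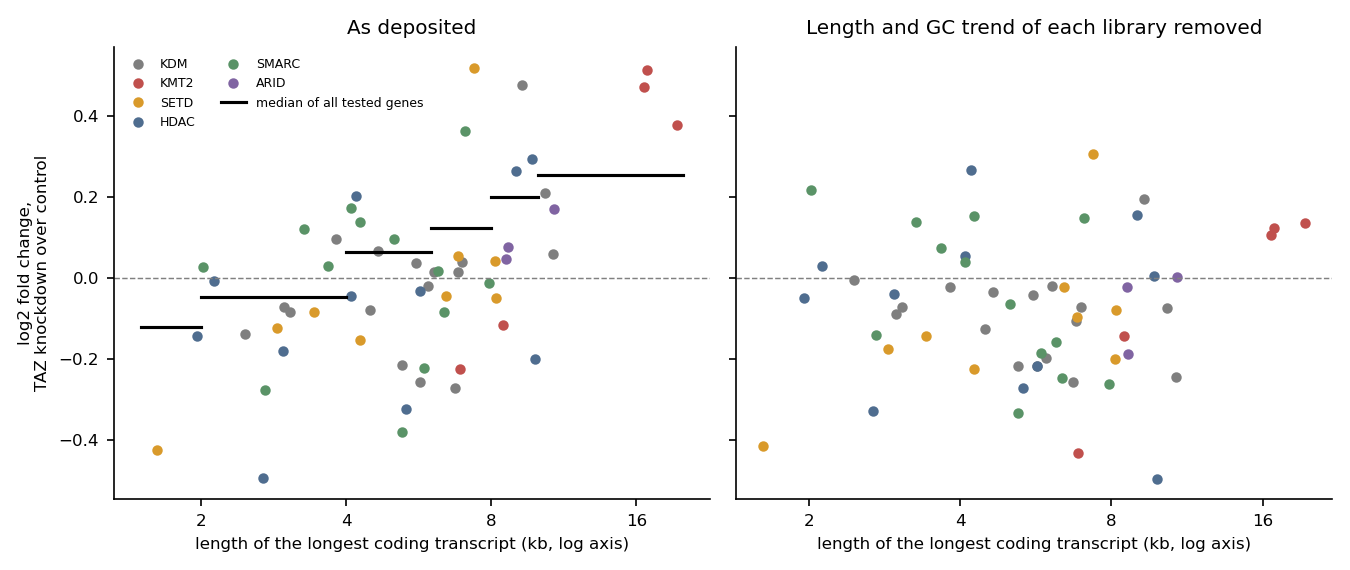
Log2 fold change (TAZ knockdown minus pLKO control) of the members, coloured by class, against transcript length in kilobases on a log axis, as deposited on the left with the all-gene median of each length bin, and with the length and GC trend removed on the right. KMT2A, KMT2C and KMT2D stand at 0.47, 0.51 and 0.38 at the far right of the left panel and at 0.11, 0.12 and 0.14 on the right.

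Among the SETD methyltransferases, SETD7 had the highest log2 fold change of any member. SETD7 monomethylates H3K4 and several non-histone proteins, among which YAP has been reported. Its normalized counts were 1753 and 1929 in the knockdown libraries, against 1200 and 1369 in the controls, with no overlap. The fold change was 1.43 (log2 0.52 ± 0.16, adjusted limma p 0.595), and with any one library left out it stayed between 0.43 and 0.62 on the log2 scale. With the length and GC trend removed it was 0.31 ± 0.15 (adjusted p 0.863), 58.8% of the log2 change before, and SETD7 was then the 1 member with both knockdown libraries above both controls.

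SETD8, which monomethylates H4K20, had 865 and 836 in the knockdown libraries, against 920.2 and 1006 in the controls, below both. Its log2 fold change was -0.18 ± 0.16, or -0.11 without the second control. SETD8 has no transcript length under that symbol and was not in the fit with the trend removed. SETD1A and SETD1B are the paired H3K4 methyltransferases of active promoters, and both overlapped between groups. SETD1A had 1378 and 1177 in the knockdown libraries, against 1333 and 1294 in the controls (-0.04 ± 0.16). SETD1B had 1337 and 1211 in the knockdown libraries, against 1294 and 1341 in the controls (-0.05 ± 0.16). SETD2, the H3K36 methyltransferase of transcribed gene bodies, had 1378 and 1278 in the knockdown libraries, against 1158 and 1432 in the controls (0.04 ± 0.17), with the knockdown values between the controls.

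The other SETD genes lay between -0.43 and 0.06. SETD9 was the lowest and had among the fewest reads of any member, with 81.5 and 54.2 in the knockdown libraries, against 86.3 and 93.2 in the controls (-0.43 ± 0.31). SETD4 had both knockdown values below both controls at a log2 fold change of -0.15, whereas SETD5 had both above at 0.06. SETD3, the actin histidine methyltransferase, stood at -0.12 and SETD6 at -0.08. The median over the class was -0.07, with 3 of 10 higher in mean. Over the 9 SETD genes with a length it was -0.05, or -0.14 with the trend removed.

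The demethylases were spread evenly about 0, with 9 of 17 higher in mean, a median of 0.01 on the log2 scale and none at an unadjusted p under 0.05. KDM1A (LSD1), the flavin-dependent H3K4 demethylase of the CoREST complex, had 1485 and 1513 in the knockdown libraries, against 1601 and 1577 in the controls (-0.08 ± 0.16). Its relative KDM1B had 425 and 377 in the knockdown libraries, against 340.4 and 412 in the controls (0.10 ± 0.20). KDM2A, an H3K36 demethylase that binds CpG islands, had the highest normalized counts of all members, at 5099 and 4878 in the knockdown libraries, against 4423 and 5328 in the controls (0.04 ± 0.17). Its groups overlapped. KDM2B, which brings a Polycomb complex to CpG islands, had 540.2 and 594 in the knockdown libraries, against 649 and 666 in the controls (-0.21 ± 0.17), below both controls.

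Apart from KDM7A, the H3K9 demethylases gave small differences as well. KDM3B had 1636 and 1621 in the knockdown libraries, against 1620 and 1605 in the controls (0.01 ± 0.16). Of the 4 KDM4 genes, which act on H3K9 and H3K36, KDM4B stood lowest, with 771 and 823 in the knockdown libraries, against 987 and 918 in the controls (-0.26 ± 0.16, adjusted p 0.774). KDM4A, KDM4C and KDM4D stood at -0.08, 0.07 and -0.07 with overlapping groups. KDM7A, which acts on H3K9 and H3K27, had the highest log2 fold change of the demethylases at 0.48 ± 0.26 (adjusted p 0.737). Its counts were 206 and 218 in the knockdown libraries, against 122 and 189 in the controls, so the first control stood apart from the rest. Without that control the log2 fold change was 0.17, and with the trend removed it was 0.20 ± 0.24. KDM8, a JmjC hydroxylase, had 117 and 81.3 in the knockdown libraries, against 114 and 101 in the controls, and the groups overlapped.

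The KDM5 enzymes, which erase H3K4 methylation and so oppose KMT2, were all higher in mean by small amounts, at a median of 0.05. KDM5A had 829 and 933 in the knockdown libraries, against 886 and 804 in the controls (0.06 ± 0.17). KDM5B, high in many prostate and breast tumours, had 1308 and 1437 in the knockdown libraries, against 1225 and 1147 in the controls (0.21 ± 0.16), and was the 1 KDM5 gene without overlap. KDM5C had 1953 and 1849 in the knockdown libraries, against 1806 and 1957 in the controls (0.02 ± 0.16), and its close homologue KDM5D stood at 0.04 ± 0.18. The handling of reads that match both copies is not known, so the split between them is uncertain. With the trend removed all 4 lay below 0, at a median of -0.06.

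The H3K27 demethylases KDM6A and KDM6B were both lower in mean. KDM6A (UTX), a subunit of the KMT2C and KMT2D complexes, had 329 and 309.5 in the knockdown libraries, against 265 and 393 in the controls (-0.02 ± 0.23), with the knockdown values between the controls. KDM6B (JMJD3), an inducible enzyme, had 574 and 582 in the knockdown libraries, against 639 and 763 in the controls (-0.27 ± 0.18, adjusted p 0.774). It was the lowest demethylase, and the groups did not overlap, though without the second control the value was -0.15.

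Of the 11 deacetylases, 8 were lower in mean, where 9053 of all 17737 genes tested were lower. Their median was -0.04 on the log2 scale, and none stood at an unadjusted limma p under 0.05. The class I enzymes, of which HDAC1, HDAC2 and HDAC3 work in corepressor complexes and HDAC8 outside them, were all 4 lower in mean at a median of -0.09. The sign of that median turned on the control. Against the first control it was -0.16 and -0.19 for the knockdown libraries, but against the second it was 0.04 and 0.07. HDAC1 had 955 and 939 in the knockdown libraries, against 1056 and 859 in the controls (-0.01 ± 0.17). HDAC2 had 1310 and 1296 in the knockdown libraries, against 1395 and 1607 in the controls (-0.20 ± 0.16, adjusted p 0.825), below both, and stood at -0.099 without the second control. HDAC3, the enzyme of NCOR complexes, had 983 and 1045 in the knockdown libraries, against 1216 and 1032 in the controls (-0.14 ± 0.17). Only HDAC2 of the 4 was free of overlap, and HDAC8 stood at -0.03.

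The class II and IV enzymes spanned a wider range, and several of them had low counts. HDAC10, a polyamine deacetylase of class IIb, was the lowest of all 59 members. It had 229 and 172 in the knockdown libraries, against 296 and 266 in the controls, a log2 fold change of -0.50 ± 0.23 with an adjusted p of 0.711, or -0.33 ± 0.21 with the trend removed. Both knockdown values lay below both controls, and without the second knockdown library the log2 fold change was -0.29. HDAC6, the tubulin deacetylase, had 369 and 330.4 in the knockdown libraries, against 377 and 244 in the controls (0.20 ± 0.24), with the second control apart from the other libraries.

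The class IIa enzymes, which shuttle between nucleus and cytoplasm and bind MEF2, showed both signs. HDAC4 had 677 and 639 in the knockdown libraries, against 632 and 474 in the controls (0.27 ± 0.19, adjusted p 0.797), just free of overlap, and without the second control the value was 0.06. HDAC5 had 444 and 289 in the knockdown libraries, against 408 and 492 in the controls (-0.32 ± 0.23), and its first knockdown library lay between the controls. HDAC7, with the highest counts of these, had 1088 and 1087 in the knockdown libraries, against 1172 and 1074 in the controls (-0.04 ± 0.16). HDAC9 had the lowest normalized counts of all members, at 35.4 and 38.6 in the knockdown libraries, against 20.4 and 43.7 in the controls, and its interval ran from -0.65 to 1.24. The class IV enzyme HDAC11 had 88.6 and 101 in the knockdown libraries, against 129.9 and 88.6 in the controls.

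**Figure D4:**
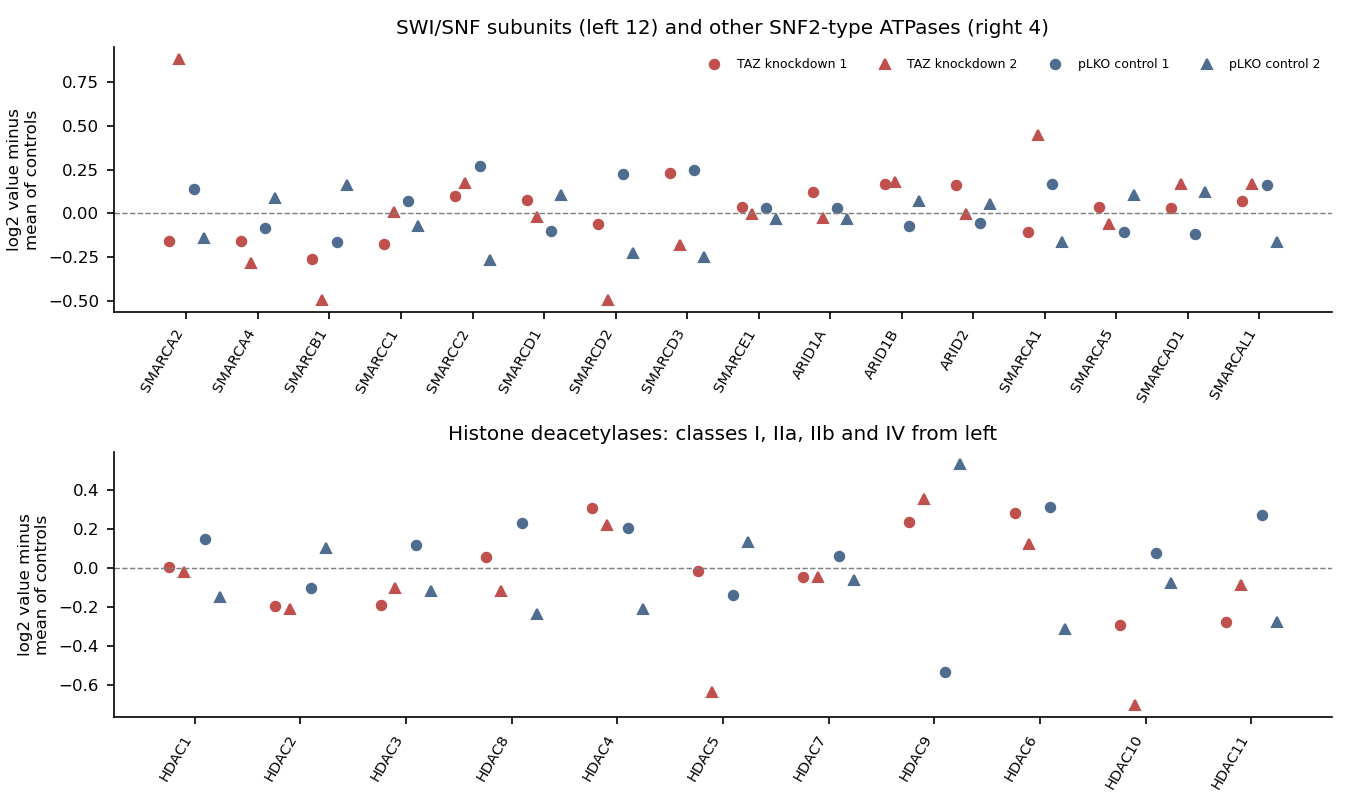
Log2(normalized count + 1) of each library minus the mean of both pLKO controls, for the SWI/SNF subunits, the other SNF2-type ATPases and the deacetylases, with TAZ knockdown points drawn before the control points. SMARCB1, SMARCA4, HDAC2 and HDAC10 have both knockdown points below both controls, ARID1B and HDAC4 both above, and SMARCA2 has its knockdown points on either side.

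The 12 SWI/SNF subunits in the rule, 9 SMARC and 3 ARID, had a median of 0.03 on the log2 scale, with 8 higher in mean. The ATPase SMARCA4 (BRG1) had 559.6 and 513 in the knockdown libraries, against 589 and 664 in the controls (-0.22 ± 0.18, adjusted p 0.822), below both, and stood at -0.14 without the second control. The alternative ATPase SMARCA2 (BRM) had 263 and 542 in the knockdown libraries, against 324 and 266 in the controls (0.36 ± 0.30). Its second knockdown library stood apart from the other 3, and without that library the log2 fold change was -0.16. Per base of transcript, SMARCA4 was 2.16 and 0.959 times SMARCA2 in the knockdown libraries, against 1.84 and 2.53 times in the controls. The ratio was near 1 in 1 knockdown library, and the groups overlapped.

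SMARCB1 (SNF5), the core subunit lost in rhabdoid tumours, was the lowest SWI/SNF subunit. It had 1156 and 983 in the knockdown libraries, against 1237 and 1555 in the controls, a log2 fold change of -0.38 ± 0.18 (adjusted p 0.714), or -0.33 ± 0.17 with the trend removed. Both knockdown values lay below both controls, and the controls were nearly as far apart as the group means. Leaving out the second control, the highest library, brought the log2 fold change to -0.21. The scaffold subunit SMARCC1 had 1965 and 2223 in the knockdown libraries, against 2326 and 2111 in the controls (-0.08 ± 0.16). Its paralog SMARCC2 had 2225 and 2344 in the knockdown libraries, against 2502 and 1723 in the controls (0.14 ± 0.19).

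The SMARCD subunits are alternatives for the same place in the complex. SMARCD1 had 1558 and 1457 in the knockdown libraries, against 1376 and 1585 in the controls (0.03 ± 0.16). SMARCD2 had 1219 and 899 in the knockdown libraries, against 1485 and 1086 in the controls (-0.28 ± 0.21). SMARCD3, the muscle and neuronal form, had 161 and 121 in the knockdown libraries, against 163 and 115 in the controls (0.03 ± 0.28). All 3 overlapped, as did SMARCE1, a DNA-bending subunit, with 1860 and 1811 in the knockdown libraries, against 1853 and 1775 in the controls (0.02 ± 0.16).

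The ARID subunits decide which form of SWI/SNF is built, ARID1A and ARID1B in the BAF form and ARID2 in the PBAF form. ARID1A had 2531 and 2277 in the knockdown libraries, against 2376 and 2272 in the controls (0.05 ± 0.16). ARID1B had 1360 and 1370 in the knockdown libraries, against 1154 and 1272 in the controls (0.17 ± 0.16, adjusted p 0.856), above both, though it was at 0.10 without the first control and at 0.00 ± 0.15 with the trend removed. ARID2 had 1129 and 1008 in the knockdown libraries, against 973 and 1050 in the controls (0.08 ± 0.16). Per base of transcript, ARID1A was 1.73 and 1.54 times ARID1B in the knockdown libraries, against 1.91 and 1.66 times in the controls, so the groups overlapped in that ratio.

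The 4 SNF2-type ATPases outside SWI/SNF had a median of 0.11, and all 4 overlapped. SMARCA5, the motor of ISWI complexes, had 3128 and 2924 in the knockdown libraries, against 2836 and 3278 in the controls (-0.01 ± 0.16). SMARCA1, the other ISWI motor, had 621 and 913 in the knockdown libraries, against 749.5 and 595 in the controls (0.17 ± 0.22). SMARCAD1 and the fork remodeller SMARCAL1 stood at 0.10 and 0.12. As with SMARCA2, the second knockdown library was the highest of the 4 for SMARCA1.

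The antisense rows were kept apart, since the library kit as described does not mark strand and reads of a gene and its antisense partner cannot be told apart. KMT2E-AS1 had 67.3 and 77.1 in the knockdown libraries, against 73.3 and 61.0 in the controls. KDM4A-AS1 had 14.2 and 20.8 in the knockdown libraries, against 20.4 and 24.2 in the controls. SMARCA5-AS1 had at most 3 reads in any library.

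Partners of these enzymes were described from 7 fixed lists, and all their genes had a row. limma, edgeR and DESeq2 called none of them, and by limma NCOA2, MTA2 and RCOR2 were those at an unadjusted p under 0.05. NCOA2 was 1 of 13 acetyltransferases and coactivators (7.69%), and MTA2 and RCOR2 were 2 of 19 deacetylase partners (10.5%). The other lists had none, and the background at that limit was 7.05% of all genes. Of 11 subunits of the complexes that hold KMT2 and SETD1 enzymes, 0 were called, at a median of -0.03. The lowest limma p-values belonged to CXXC1, the CpG-binding subunit of SETD1 complexes, at -0.29 ± 0.17, and ASH2L, a core subunit, at 0.17 ± 0.17. Of 11 Polycomb PRC2 genes, 0 were called, at a median of -0.005. The H3K27 methyltransferase itself, EZH2, had 747 and 800.5 in the knockdown libraries, against 756 and 752 in the controls, and was chosen after its values were seen. JARID2, a PRC2 cofactor, was at 0.44 ± 0.24 with 1343 and 1297 in the knockdown libraries, against 724 and 1306 in the controls, so that its difference rested on the first control, and PHF19 was at -0.16 ± 0.17.

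Of 17 other histone methyltransferases, 0 were called at a median of 0.00, with WHSC1, an H3K36 dimethyltransferase, at 0.26 ± 0.16 and CARM1, an arginine methyltransferase, at -0.23 ± 0.16. Of 13 acetyltransferases and related coactivators, 0 were called at a median of 0.08. NCOA2, a nuclear receptor coactivator, had the lowest p of that list, with 756 and 904 in the knockdown libraries, against 463 and 572 in the controls (0.68 ± 0.19, adjusted limma p 0.518), and was at 0.43 ± 0.17 with the trend removed. KAT2A (GCN5) was at -0.36 ± 0.19, or -0.10 without the second knockdown library.

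Of 19 SIN3, NuRD and CoREST partners of the deacetylases, 0 were called at a median of -0.01. MTA2, a NuRD subunit, had 1586 and 2763 in the knockdown libraries, against 3222 and 3512 in the controls (-0.68 ± 0.23, adjusted p 0.620), with both knockdown libraries lower but far apart from each other. Without the first knockdown library its value was -0.28. RCOR2, a CoREST scaffold, had few reads, with normalized counts of 12.4 and 12.5 in the knockdown libraries, against 32.5 and 23.0 in the controls (-1.08 ± 0.44, adjusted p 0.687). The 7 sirtuins, the NAD-dependent deacetylases, were all lower in mean with 0 called and a median of -0.13, which was 0.01 with the trend removed. SIRT1 had 692 and 349 in the knockdown libraries, against 652 and 819 in the controls (-0.57 ± 0.28). Its first knockdown library lay between the controls, and without the second the value was -0.078. SIRT4 was at -0.48 ± 0.45. Of 16 SWI/SNF subunits outside the symbol rule, 0 were called at a median of -0.07, with SS18, mutated by fusion in synovial sarcoma, at 0.35 ± 0.16 and ACTB, the actin subunit, at 0.46 ± 0.25, or 0.22 without the first control.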

How the data were processed

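Total RNA of 4 DU145 libraries was analysed from 1 deposited table. Per the file headers, the authors gave each gene a normalized count per library (a signal divided by a size factor), a mean signal, a log2 fold change with its error, a Wald score, and a raw and an adjusted p-value from DESeq2. The submitters' processing notes name STAR, DESeq2 and hg19 without version or role. Annotation and read counter are not known, and no hg19 coordinate is printed. All values (100%) were whole multiples of their column's smallest value within 0.001 reads, which recovered the reads. The 26 rows with symbols turned into dates (0.153 to 0.191% of reads) were left out.

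limma 3.58.1 (R 4.3.3; lmFit, eBayes with intensity trend) was fitted to log2(value + 1) over 17737 genes with a value of at least 1 in 2 or more libraries, without a block, and adjusted by Benjamini-Hochberg at 0.05. Fold changes on that scale understate changes of low genes. edgeR 4.0.16 (quasi-likelihood), DESeq2 1.42.0 and limma-voom were run on the recovered reads. Length and GC trends were removed with splines (4 df each) on the longest protein-coding GENCODE 29 transcript, and levels per base used the principal transcript; both are of another build than hg19. The limma and edgeR fits were tested on simulated data. Other settings were other scalings, pseudocounts, filters and transcripts, a replicate block, and each library left out.

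Members and lists were chosen with earlier results of these data known. Named genes are WWTR1, 30 fixed members, members at an unadjusted p under 0.05, the extreme non-overlapping members of each class with a mean of at least 100, and the 2 genes of lowest p in each partner list. Further members are named to account for all 59. One gene of the KDM pattern is not reported here.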

Additional observations from a re-analysis of the deposited data

How the results depend on the processing

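No member passed the threshold under any of 20 other settings. The number of all genes called, 2 by limma, was 68 by DESeq2, 10 by edgeR, 7 with a replicate block, and 0 without the intensity trend, under quantile normalization or with any library left out. Same-numbered libraries did not deviate together (r = -0.08 over 13950 genes), so the numbers were not taken to pair them, and with the block, which in this balanced design cannot move a fold change, no member was called. Removing the length and GC trend brought the median log2 fold change to 0.11 for KMT2, -0.021 for ARID, -0.074 for KDM, -0.063 for SMARC and -0.073 for all members. With principal transcripts these were 0.12, -0.028, -0.082, -0.061 and -0.067, and with the length trend alone -0.024 for KMT2, -0.13 for ARID, -0.11 for KDM and -0.11 for all members. The last 2 settings were chosen after the data were seen, as was counting KMT2E-AS1 with KMT2, which gave 0.24. With any one library left out, the medians ran from 0.23 to 0.38 for KMT2, from -0.0043 to 0.16 for ARID, from -0.16 to 0.018 for HDAC, from -0.062 to 0.051 for KDM, from -0.18 to 0.035 for SETD, from -0.043 to 0.028 for SMARC and from -0.045 to 0.037 for all members; all of these ranges but that of KMT2 cross 0. With 2 libraries a group, leaving out 1 assumes that the lone library varies like the other group. Of 35 named members, 15 kept their sign under every setting, among them KMT2A, KMT2C, SETD7, HDAC10 and SMARCB1, whereas KMT2D turned to -0.02 with the length trend alone removed.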
